A study of Homo sapiens with 3 samples.

Results

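RNA interference is the pathway through which a small interfering RNA (siRNA) silences its target, and the HCT-116 cells studied here were loaded with siRNA directed at *APC*. The 10 genes described encode its core machinery and were looked up by name in the deposited table of 23131 gene rows. All 10 were found, and the Argonautes are listed there under their older symbols *EIF2C1* to *EIF2C4* (now AGO1 to AGO4). The rule for them uses no measured value. HCT-116 is a colon carcinoma line with wild-type *APC* and a β-catenin gene (*CTNNB1*) that carries the ΔSer45 mutation. The series has 3 conditions, differing in what was transfected: siRNA pooled against *APC*, a scrambled pool, and no siRNA. Transfection was repeated the next day, and RNA was taken 48 hours after the final round. The condition without siRNA served as the control, and its labels call it both untransfected and mock-transfected with reagent only. There was 1 RNA-seq library per condition, and the table holds 2 of the 3 libraries (anti-*APC* and untransfected). Scrambled siRNA cells were not analysed here, and an effect of siRNA loading as such and an effect of *APC* silencing cannot be told apart. The same holds for an effect of the transfection reagent, if the control cells did not receive it.

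In animal cells, most microRNAs (miRNAs) are cut from long primary transcripts in the nucleus by the nuclease DROSHA and its RNA-binding partner DGCR8, which together form the Microprocessor. Exportin-5 (*XPO5*) carries the resulting hairpins to the cytoplasm, where DICER1 trims them to short duplexes with the help of TARBP2. An Argonaute protein keeps a single strand as its guide, and TNRC6 (GW182) proteins bound to Argonaute recruit the enzymes that shorten and decap the target mRNA. A synthetic siRNA duplex enters this path at the Argonaute step, and AGO2 is the human Argonaute best known for slicing fully matched targets.

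All values are FPKM, the fragments per kilobase of transcript and scaled to the mapped reads. Genes and libraries are set side by side on this scale, and ratios between libraries depend on it. All 10 genes had at least 1 FPKM in both libraries, and all were marked as tested by Cuffdiff (status OK). A gene counted as changed here when the libraries differed by at least 1.5-fold with at least 1 FPKM in both. Since each condition has 1 library, there is no replicate check of any difference, and no *p*-value is given. The table lists no read counts. The worth of 1 read, read from 309 rows at the lowest levels, was higher by 0.13 on the log2 scale in the anti-*APC* library, so this library was the shallower by a factor of 1.10. Transcript lengths of 53 such genes placed the depth of the untransfected library near 21000000 reads, with quartiles over these genes of 12900000 and 25500000. For the anti-*APC* library the estimate was 19100000 reads. Each of these rows was taken to hold 1 read per library. Rows with more reads, equal in number in both libraries, share the same ratio and were not told apart. Such rows would make the estimated depth too low. The 95% intervals given below are exact binomial (Clopper-Pearson) intervals on the reads that the estimated depth would place on the coding part of each gene. For noncoding genes the whole transcript was used. The intervals cover counting error only and depend on the depth estimate and on the length used. For coding genes, reads on the untranslated parts were left out, which at a given depth makes the intervals wider. In RNA from whole cultures, fewer cells that express a gene and less RNA per cell cannot be told apart.

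None of the 10 genes reached a 1.5-fold difference between the libraries. Over all genes that reached 1 FPKM in both libraries, 8.04% of 11815 did so (270 higher and 680 lower with anti-*APC* siRNA). Among the 9122 genes within the FPKM range of the 10, from 1.68 to 55.8, the share was 7.13%. With 10 genes, a count of 0 lies close to what these shares give. *APC* itself measured 3.43 FPKM in siRNA-loaded and 9.15 FPKM in untransfected cells, a log2 ratio of -1.41 with a counting interval from -1.55 to -1.27. A difference as large as that of *APC* was seen in 0.584% of the expressed genes. The target of the siRNA was therefore at 0.375 of its untransfected level in the same cells in which the silencing machinery stayed under 1.5-fold.

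Of the 10 genes, 6 were higher and 4 were lower in the anti-*APC* library, and 9 lay within 1.2-fold. Their median log2 ratio was 0.02, against -0.05 over all expressed genes. Their median distance from 0, regardless of direction, was 0.16 on the log2 scale, against 0.17 over all expressed genes. The 10 genes were thus spread around no difference to about the same extent as the rest of the transcriptome. When each library was rescaled to the sum of its values (TPM), the signs of *EIF2C3* and *DGCR8* turned, and the count became 4 higher and 6 lower. With the row of *MIR4461* left out of that sum, the sign of *DGCR8* alone turned.

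**Figure D1:**
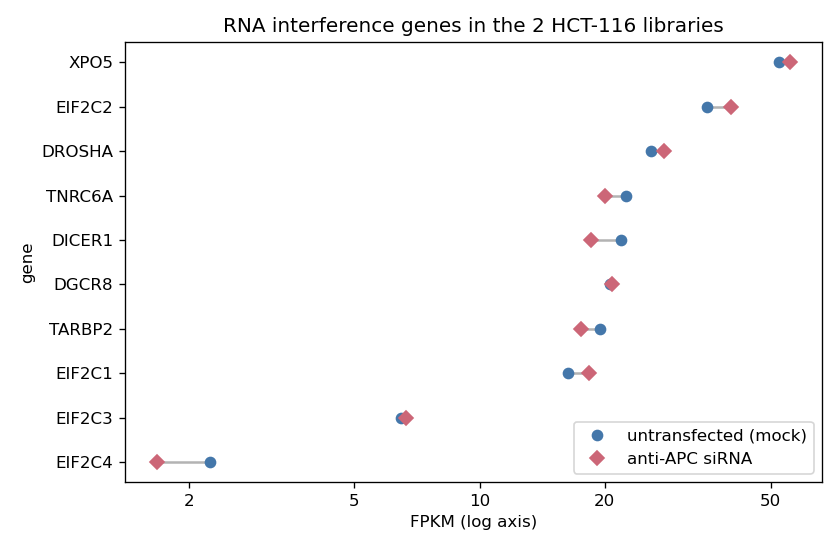
FPKM (horizontal log axis) of each of the 10 RNA interference genes in the untransfected library (circles) and the anti-*APC* siRNA library (diamonds), 1 library each, ordered by the untransfected level. *XPO5* is highest in both libraries and *EIF2C4* lowest. Every pair of symbols lies close together compared with the full range of the 10 genes.

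The levels of the 10 genes covered a 23.3-fold range in the untransfected library and a 33.3-fold range in the anti-*APC* library, far wider than any difference between the libraries. *XPO5* was the highest of the 10 in both. *EIF2C2*, which encodes AGO2, came next, followed by *DROSHA*. *TNRC6A*, *DICER1*, *DGCR8*, *TARBP2* and *EIF2C1* formed a narrow group between 16.3 and 22.5 FPKM in untransfected cells. Within this group the order differed between libraries, and *DGCR8* rather than *TNRC6A* was highest with anti-*APC* siRNA. *EIF2C3* and *EIF2C4* stood below this group in both libraries.

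Both Microprocessor genes lay within 1.2-fold of their untransfected level. *DROSHA*, on chromosome 5 of GRCh37 from 31400601 to 31532303, measured 27.8 FPKM in siRNA-loaded and 25.8 FPKM in untransfected cells. Its log2 ratio was 0.11, with a counting interval from 0.023 to 0.19. *DGCR8*, on chromosome 22 from 20067744 to 20099400, measured 20.8 FPKM in siRNA-loaded and 20.6 FPKM in untransfected cells. Its log2 ratio of 0.01 (interval -0.12 to 0.14) was the smallest of the 10, and 97.2% of the expressed genes differed by at least as much. *DGCR8* stood at 0.747 of the level of *DROSHA* in the anti-*APC* library and at 0.801 in the untransfected library.

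*DGCR8* is itself a substrate of the complex it belongs to, since the Microprocessor cuts hairpins in its mRNA. The table has rows for both of the miRNA genes annotated there, *MIR3618* (chromosome 22, 20073269 to 20073356) and *MIR1306* (20073581 to 20073665), at the same Cuffdiff locus as *DGCR8*. Each overlaps an annotated exon on the strand of *DGCR8*. *DICER1* holds a miRNA gene too, *MIR3173* (chromosome 14, 95604256 to 95604323), which lies in an intron. The mature miRNAs of these hairpins (RefSeq, GRCh38.p14) are shown because they are what the machinery makes from transcripts of its own genes. The seed, bases 2 to 8, is in capitals, and no seed is shared among them.
hsa-miR-3618: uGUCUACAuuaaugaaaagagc
hsa-miR-1306-5p: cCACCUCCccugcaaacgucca
hsa-miR-1306-3p: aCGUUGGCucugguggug
hsa-miR-3173-5p: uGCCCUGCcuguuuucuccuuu
hsa-miR-3173-3p: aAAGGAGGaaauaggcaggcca

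The row of *MIR3618* measured 308 FPKM in siRNA-loaded and 296 FPKM in untransfected cells, a ratio of 1.04 beside 1.01 for its host. The row of *MIR1306* measured 573 FPKM in siRNA-loaded and 167 FPKM in untransfected cells, a ratio of 3.43. *MIR3173*, the intronic row, is listed at 0 in both libraries. These rows are shorter than typical fragments of an mRNA library, so their FPKM do not measure mature miRNA and cannot be set beside the FPKM of *DGCR8*. How Cuffdiff divided reads between *DGCR8* and the hairpin rows was not tested. Among all genes listed, 36.8% of 174 miRNA rows that overlap an annotated exon on the same strand were above 0 in at least 1 library. Of 596 rows inside introns, 9.06% were above 0. Of 275 rows outside protein-coding and long noncoding genes of the same strand, 22 were. Some of the 1196 miRNA rows fell in none of these classes. Where any of the 1196 rows was above 0 in both libraries, 36 of 79 differed by at least 1.5-fold (45.6%). The share that differed by as much as *MIR1306* was not counted. *TRMT2A*, a tRNA methyltransferase gene that meets the end of *DGCR8* on the opposite strand and shares its locus row, had 14.8 FPKM with and 15.7 FPKM without anti-*APC* siRNA.

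*XPO5*, on chromosome 6 from 43490072 to 43543775, measured 55.8 FPKM in siRNA-loaded and 52.5 FPKM in untransfected cells. Its log2 ratio was 0.09 (interval 0.023 to 0.15). It was the most abundant of the 10 and lay above 83.2% of expressed genes in untransfected cells and above 84.3% with anti-*APC* siRNA. Relative to *DICER1*, which acts next on the same hairpins, *XPO5* was 2.40-fold higher without and 3.01-fold higher with anti-*APC* siRNA.

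*DICER1*, on chromosome 14 from 95552565 to 95624347, was lower in the siRNA-loaded cells, with 18.5 FPKM against 21.9 FPKM in untransfected cells. The log2 ratio was -0.24, and its counting interval from -0.32 to -0.15 left out 0 by the widest margin of the 10 genes. The difference, 1.18-fold, was still modest, and 35.5% of expressed genes differed by at least as much. *TARBP2*, on chromosome 12 from 53894705 to 53900215, encodes the double-stranded RNA-binding partner of DICER1. It measured 17.5 FPKM in siRNA-loaded and 19.5 FPKM in untransfected cells, a log2 ratio of -0.16 whose interval from -0.36 to 0.046 includes 0. *DICER1* and *TARBP2* were thus nearly level with each other in both libraries, at a ratio of 1.06 with and 1.12 without anti-*APC* siRNA. *PRKRA*, the other known double-stranded RNA-binding partner of DICER1, is a failed row (status FAIL) listed at 0 in both libraries and gives no level.

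*DICER1* mRNA is also known as a target of let-7, an abundant miRNA family whose maturation needs DICER1. The family members let-7a and let-7b share 1 seed, and their mature sequences (RefSeq, GRCh38.p14) are given with bases 2 to 8 in capitals.
hsa-let-7a-5p: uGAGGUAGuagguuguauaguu
hsa-let-7b-5p: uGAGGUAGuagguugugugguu

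The seed complement CTACCTC was searched on the sense strand of the canonical mRNA of every coding gene (GENCODE 44 on GRCh37). *DICER1* held 4 matches, all in its coding part. Of 19894 mRNAs 13.1% had a coding match, and 16 had at least 4. Among the 523 mRNAs with a coding part at least as long as that of *DICER1*, 48.6% had a coding match and 1.72% had at least 4. The 4 matches are printed with their flanks, the match in capitals and its first and last base counted from the start of the mRNA.
*DICER1* 2980 to 2986: atactgtgttCTACCTCttaatgttgtt
*DICER1* 3986 to 3992: gtgcaaccaaCTACCTCatattccattc
*DICER1* 4094 to 4100: gctaacaaatCTACCTCagatggaagtc
*DICER1* 5484 to 5490: cgattttggaCTACCTCataaccaagca

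Of the other 9 genes, *EIF2C3* and *XPO5* had 1 coding match each, and *EIF2C1*, *EIF2C2*, *EIF2C3* and *TARBP2* had matches in the 3′ UTR (2 in *EIF2C2* and 1 in each of the others). *EIF2C4*, *DROSHA*, *DGCR8* and *TNRC6A* had none. A match in the 3′ UTR was found in 9.55% of all mRNAs, but in 57.8% of the 135 mRNAs whose 3′ UTR is at least as long as the 10925 bases of *EIF2C1*. The 3′ UTRs of *EIF2C2* and *EIF2C3* are longer than this, and that of *TARBP2* has 283 bases. The matches are a description of these letters and were not related to binding. Of the 6 genes with a match, *DICER1* and *TARBP2* were lower and *EIF2C1*, *EIF2C2*, *EIF2C3* and *XPO5* were higher.

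The Argonaute paralogs differed widely from each other in level. *EIF2C2*, on chromosome 8 from 141530255 to 141645732, measured 40.3 FPKM in siRNA-loaded and 35.1 FPKM in untransfected cells. Its log2 ratio of 0.20 (interval 0.10 to 0.29) was the largest increase in value among the 10 and amounts to 1.15-fold. *EIF2C1* (AGO1), on chromosome 1 from 36335409 to 36396133, had 18.3 FPKM with and 16.3 FPKM without, a log2 ratio of 0.17 (interval 0.036 to 0.31). *EIF2C3* (AGO3), next to it from 36396319 to 36538101, had 6.65 FPKM with and 6.47 FPKM without, a log2 ratio of 0.04 (interval -0.18 to 0.26).

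*EIF2C4* (AGO4), which lies on the other side of *EIF2C1* from 36273617 to 36323491, was the lowest of the 10 and went in the other direction. It measured 1.68 FPKM in siRNA-loaded and 2.25 FPKM in untransfected cells. The log2 ratio was -0.43, or 1.34-fold lower, and the counting interval from -0.84 to -0.010 nearly reaches 0. Only about 83 and 122 reads are estimated on its coding part. It was the single gene of the 10 past a lower limit of 0.32 on the log2 scale, which 24.3% of all expressed genes also passed. Thus *EIF2C1*, *EIF2C3* and *EIF2C4*, neighbours on the same strand of chromosome 1, did not share a direction, although the intervals of *EIF2C3* and *EIF2C4* overlap.

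Summed over the family, Argonaute transcripts came to 66.9 FPKM after siRNA loading and 60.1 FPKM without it, a 1.11-fold difference. *EIF2C2* made up 60.2% of the sum with and 58.4% without anti-*APC* siRNA. *EIF2C1* contributed 27.4% and 27.1%, *EIF2C3* 9.94% and 10.8%, and *EIF2C4* 2.51% and 3.75%, in the same order. The slicing Argonaute was thus the main transcript of the family in both libraries, and the makeup of the family moved by less than 2 percentage points for each gene. *EIF2C2* was 1.61-fold above *DICER1* in untransfected cells and 2.17-fold above it with anti-*APC* siRNA, the combined result of the small opposite differences of both genes.

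*TNRC6A*, on chromosome 16 from 24621530 to 24838953, encodes a GW182 protein, the link between Argonaute and mRNA decay. It measured 20.0 FPKM in siRNA-loaded and 22.5 FPKM in untransfected cells, a log2 ratio of -0.17 (interval -0.25 to -0.089). Its paralog *TNRC6B* had 7.53 FPKM with and 7.39 FPKM without, and *TNRC6C* had 3.70 FPKM with and 4.61 FPKM without. *TNRC6A* supplied 64.0% of the sum of the 3 paralogs with and 65.2% without anti-*APC* siRNA. That sum was 31.2 FPKM with and 34.5 FPKM without, whereas the Argonaute sum differed in the other direction.

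**Figure D2:**
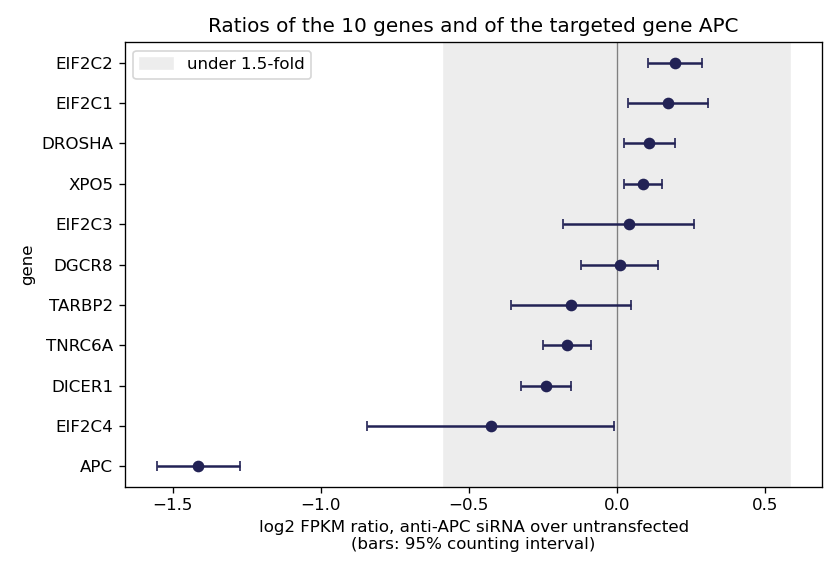
Log2 ratio of FPKM, anti-*APC* siRNA over untransfected (horizontal axis), for the 10 genes and *APC*, with 95% counting intervals from estimated reads as bars and the range under 1.5-fold shaded. All 10 ratios lie inside the shaded range, from -0.43 (*EIF2C4*) to 0.20 (*EIF2C2*), and *APC* lies far outside it at -1.41.

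The counting intervals of 7 of the 10 genes left out 0: *EIF2C1*, *EIF2C2*, *DROSHA* and *XPO5* above it and *EIF2C4*, *DICER1* and *TNRC6A* below it. With the lower quartile of the depth estimate 5 remained, without *EIF2C4* and *DROSHA*. After rescaling to TPM, a shift of 0.062 on the log2 scale, 5 also did, namely *EIF2C2*, *EIF2C4*, *DICER1*, *TARBP2* and *TNRC6A*. *EIF2C2*, *DICER1* and *TNRC6A* left out 0 under each of these settings and under median centring. A difference beyond counting error between 2 libraries is not a difference between conditions, for which replicates would be needed.

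Of 60 further pathway genes in 3 lists, 54 had at least 1 FPKM in both libraries, and none of these differed by 1.5-fold, against 8.04% of all expressed genes. In the list of other processing, export and loading factors (14 of 16 expressed) the median log2 ratio was 0.01. It ranged from -0.37 for *MOV10*, an RNA helicase that binds Argonaute, to 0.24 for *HSPA8*, a chaperone that helps load duplexes. *HSP90AB1*, another loading chaperone, was its most abundant gene with anti-*APC* siRNA, at 2171 FPKM with and 2066 FPKM without. In untransfected cells *HSP90AA1* of the same list was the most abundant, at 2104 FPKM, and it had 2131 FPKM with anti-*APC* siRNA. *PRKRA* and *TSNAX* are failed rows listed at 0.

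All 28 GW182 paralogs and deadenylation and decapping effectors were expressed, with a median log2 ratio of 0.01. *PABPC1*, the poly(A)-binding protein that GW182 proteins contact, was the most abundant and the highest in ratio, with 1083 FPKM with and 859 FPKM without anti-*APC* siRNA (1.26-fold). Among the regulators and modifiers of miRNA precursors 12 of 16 were expressed, with a median of 0.00 and a range from -0.21 to 0.095. *ILF2*, the most abundant of them, had 413 FPKM with and 402 FPKM without. The let-7 blockers *LIN28A* and *LIN28B* were at or below 0.14 FPKM in both libraries.

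**Figure D3:**
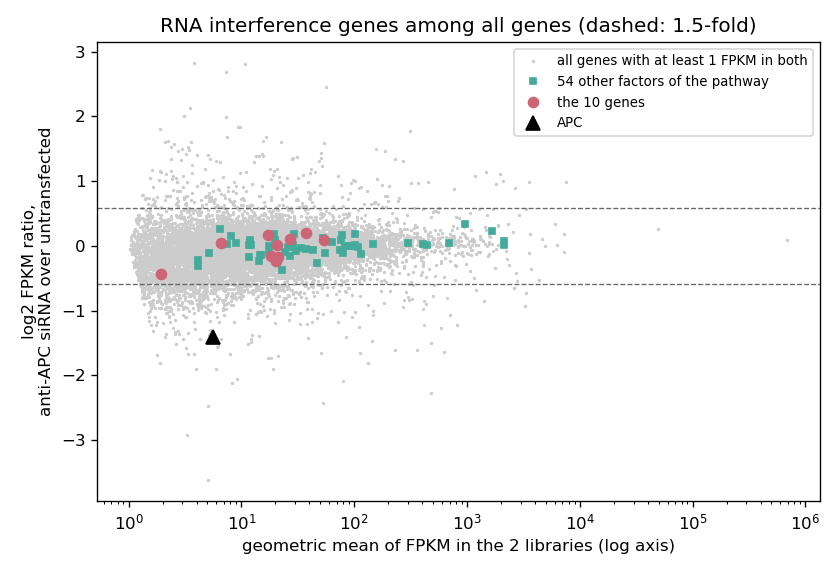
Log2 FPKM ratio, anti-*APC* siRNA over untransfected (vertical axis), against the geometric mean of FPKM (horizontal log axis) for genes expressed at 1 FPKM or more in each library, with the 10 genes as circles, 54 other pathway factors as squares and *APC* as a triangle. Circles and squares lie between the dashed lines at 1.5-fold, where most genes lie, and *APC* lies well below them.

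Of 12 genes for sensors and uptake of double-stranded RNA 7 were expressed, and none differed by 1.5-fold (median log2 ratio 0.05). With 7 genes, a count of 0 lies close to the 8.04% of all expressed genes and is not a result about the sensors. *EIF2AK2*, which encodes the RNA-activated kinase PKR, was the most abundant, with 30.4 FPKM with and 27.0 FPKM without anti-*APC* siRNA. The RIG-I gene *DDX58* had 3.96 FPKM with and 3.78 FPKM without. The ratios of the 7 ran from -0.27 for *IFIH1*, which encodes the sensor MDA5 (1.61 FPKM with and 1.95 FPKM without), to 0.17 for *EIF2AK2*. *SIDT2*, a putative RNA transporter gene, was at 6.88 FPKM with and 8.09 FPKM without, a log2 ratio of -0.23 (interval -0.45 to -0.023).

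The transcripts that feed the machinery were examined through 2 lists of miRNA hosts. Of 12 noncoding hosts 6 were in the table and 3 of these were expressed. *MIR100HG*, host of miR-100 and a let-7a hairpin, was the most abundant, with 33.0 FPKM with and 33.7 FPKM without anti-*APC* siRNA. *MIR17HG*, host of the miR-17 to miR-92a cluster, had 5.18 FPKM with and 3.96 FPKM without, a log2 ratio of 0.39 (interval -0.12 to 0.90). *DLEU2*, host of miR-15a and miR-16-1, had 2.42 FPKM with and 2.70 FPKM without. *MIR210HG* did not count as expressed, with 0.529 FPKM with and 1.14 FPKM without anti-*APC* siRNA. Its log2 ratio was -1.11 (interval -1.90 to -0.40), on about 23 and 55 estimated reads. Of 20 protein-coding hosts 19 were expressed and none differed by 1.5-fold. With 19 genes, a count of 0 lies close to the 8.04% of all expressed genes and is not a result about the hosts. *MCM7*, a replicative helicase gene and host of the miR-106b cluster, was the most abundant of these, at 242 FPKM with and 230 FPKM without.

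Genes known as let-7 targets were listed as a possible readout of miRNA activity, although each is under other controls as well. Of these, 10 of 14 were expressed and 2 differed by at least 1.5-fold, in opposite directions (20.0%, against 8.04% of all expressed genes). *CDC25A*, a phosphatase that promotes cell-cycle entry, had 39.4 FPKM with and 24.0 FPKM without anti-*APC* siRNA (1.64-fold). *HMGA1*, a chromatin protein gene and the most abundant of the list, had 507 FPKM with and 881 FPKM without, which left 0.576 of its level. *HMGA2* had 147 FPKM with and 106 FPKM without. Matches to the let-7 seed in the 3′ UTR numbered 4 in *HMGA2*, 2 in *CDC25A* and 1 in *HMGA1*. The list had a median log2 ratio of 0.08, and its members did not move together. The mature let-7 level was not measured in these libraries.

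**Figure D4:**
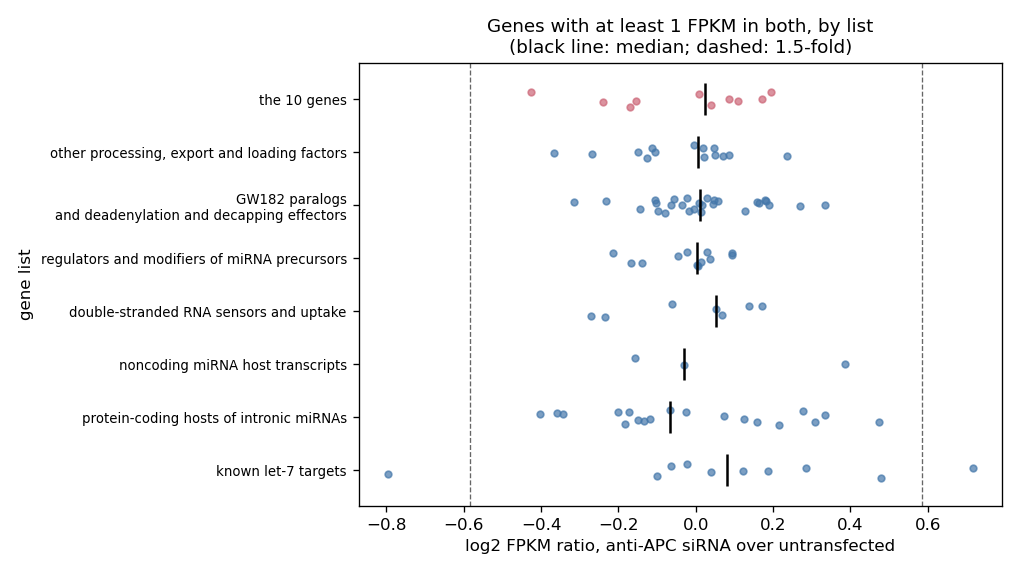
Log2 FPKM ratio, anti-*APC* siRNA over untransfected (horizontal axis), of each gene with at least 1 FPKM in both libraries in the 10 genes and 7 further lists, with the median of each list as a black line and 1.5-fold as dashed lines. Every list has its median between -0.07 and 0.08, and only *CDC25A* and *HMGA1*, among the let-7 targets, lie beyond the dashed lines.

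The cell type named by the labels was checked with marker lists. Of 8 epithelial markers 6 were expressed, led by *KRT8* with 478 FPKM with and 588 FPKM without anti-*APC* siRNA, whereas the intestinal genes *CDX1* and *VIL1* were at or below 0.031 FPKM. All 6 expressed markers were lower with anti-*APC* siRNA, as were 58.4% of all expressed genes. *CLDN4* (25.8 against 44.4 FPKM) and *CDH1* (12.1 against 19.0 FPKM), both cell junction genes, were past 1.5-fold (33.3% of the 6, against 8.04% of all expressed genes). The epithelial sum was 1313 FPKM with and 1687 FPKM without. Fibroblast markers summed to 3.18 and 2.91 FPKM in the same order, of which *COL1A1* gave 3.08 and 2.85 FPKM. Leukocyte markers summed to 5.35 and 9.24 FPKM, nearly all from the lysosomal gene *CD68* (5.01 and 8.91 FPKM), and *CD3D* and *MS4A1* were listed at 0 in both libraries. Whether the difference in epithelial markers has a part in the small differences of the RNA interference genes was not tested.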

How the data were processed

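HCT-116 RNA was sequenced as single-read TruSeq libraries, 1 per condition. Per the labels, the authors used Cufflinks and Cuffdiff with hg19 (GRCh37), and versions, aligner and annotation are not given in the sources used here. The deposited values used are FPKM, scaled by the authors to transcript length and mapped reads. The deposited table also holds the authors' own comparison as a log ratio with its statistic, p-value and q-value (a score, since it exceeds 1), and none of these columns was used.

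Log2 ratios were taken without a pseudocount. A call was at least 1.5-fold with at least 1 FPKM in both libraries. Read depth was estimated from rows under 0.1 FPKM whose ratio lay within 0.002 (log2) of the most common one. Coordinates, lengths and mRNAs were taken from GENCODE 44 on GRCh37, which matched 20926 of 23131 rows by symbol or RefSeq synonym. The 10 genes and the lists were chosen with earlier results of these data known. Named genes are the 10, *APC*, genes at their loci, and in each list every gene past 1.5-fold and the most abundant. Others (*MOV10*, *HSPA8*, *TNRC6B*, *TNRC6C*, *LIN28A*, *LIN28B*, *DDX58*, *IFIH1*, *SIDT2*, *MIR17HG*, *DLEU2*, *MIR210HG*, *HMGA2*, failed rows and markers at 0) were named after their values were seen. Alternatives were other folds, FPKM minimums, scalings and pseudocounts. A TPM scaling without *MIR4461*, was added after seeing the data. The code for ratios, for relative depth and for intervals from known counts was tested on simulated data. The absolute depth and the step from FPKM to reads were not tested in this way. Scripts ran under Python 3.11.15 (scipy 1.17.1, pandas 2.3.3, numpy 2.4.6, matplotlib 3.10.9).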

Additional observations from a re-analysis of the deposited data

How the results depend on the processing

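No alternative brought any of the 10 RNA interference genes past the rule except a lower fold limit (0.32 on the log2 scale), which gave 1 gene (*EIF2C4*), whereas the main rule gave 0. Among the 111 genes of the 7 further lists the rule gave 2 genes, the lower limit gave 11, a fold of 2 gave 0, and no FPKM minimum gave 7. The log2 ratio of *APC* was -1.41 and became -1.19 with a pseudocount of 1 FPKM. The median log2 ratio of the 10 genes ranged from -0.04 (TPM) to 0.07 (median centring), with 0.06 for the 8 genes alone at their locus. A single row, *MIR4461*, holds 49.2% of the summed FPKM of the untransfected library and 50.3% of that of the anti-*APC* library. Leaving it out, a setting chosen after seeing the data, changed the TPM shift from 0.062 to 0.032 on the log2 scale and the median of the 10 genes to -0.01. No paired analysis was possible because there is 1 library per condition and no test was run. The counting intervals limit what could be seen: that of *EIF2C4*, the lowest gene, ran from -0.84 to -0.010 on the log2 scale.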
